A study of Rattus norvegicus with 15 samples.

Results

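The susceptibility genes best known from inherited pheochromocytoma were followed by name in the RNA of rat adrenal medulla and of rat pheochromocytomas. The 10 were the succinate dehydrogenase subunits *Sdha*, *Sdhb*, *Sdhc* and *Sdhd*, fumarate hydratase *Fh*, the ubiquitin ligase subunit *Vhl*, and the kinase-type genes *Ret*, *Nf1*, *Max* and *Tmem127*. Of these 10, 7 were present in at least 1 of the 3 deposited tables, which list 8621 genes together: *Sdha*, *Sdhb*, *Sdhc*, *Sdhd*, *Fh*, *Vhl* and *Ret*. *Nf1*, *Max* and *Tmem127* are in none of the 3 tables and were not analysed here, so *Ret* stood alone for the 4 kinase-type genes, against 5 metabolic genes. All 7 genes had counts in all 15 samples, as did 5492 of the 8621 genes.

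Succinate dehydrogenase oxidizes succinate to fumarate in the tricarboxylic acid (TCA) cycle and passes the electrons to ubiquinone in the respiratory chain, and fumarate hydratase converts the fumarate to malate. When either enzyme is lost, its substrate accumulates and inhibits dioxygenases, among them the prolyl hydroxylases that mark hypoxia-inducible factors (HIFs) for recognition by the VHL protein, so that inherited tumors of these genes and of VHL share a pseudohypoxic program. RET, in contrast, is a receptor tyrosine kinase for ligands of the GDNF family, and its inherited mutations activate it. NF1 restrains RAS, TMEM127 restrains mTORC1 and MAX is the partner of MYC, which is why they are grouped with RET as kinase-type genes.

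All 15 rats were of the Sprague-Dawley strain, no treatment is given, and there were 5 rats in each of 3 groups. The WT group was wildtype adrenal medulla at 7 to 9.5 months of age. The other groups came from MENX rats, which carry a frameshift mutation of *Cdkn1b*, the gene of the cell cycle inhibitor p27, in all their cells: hyperplastic medulla (HYP) at 4 to 5 months and pheochromocytoma (PCC) at 7 to 9.5 months. HYP and WT therefore differed in age as well as in genotype, PCC and HYP in age as well as in stage, and the tumors were at different extents, which the labels do not assign to samples. Poly-A RNA was sequenced from macrodissected tissue, and between 16315018 and 23831269 reads per sample were counted on genes.

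The markers of the labelled tissue were present in every sample, and so were those of its neighbor. The summed level of the 10 chromaffin markers with values in all samples (of 14 searched for), such as *Th*, *Ddc* and *Dbh* of catecholamine synthesis, was 2040 to 9739 counts per 1000000 reads (CPM) in WT, 11312 to 15960 CPM in HYP and 19155 to 37273 CPM in PCC. The summed level of 8 of 14 adrenal cortex markers, such as *Star* and *Cyp21a1* of steroid synthesis, was 26347 to 53414 CPM in WT, 11897 to 32417 CPM in HYP and 825 to 13772 CPM in PCC, and none of the 8 was at 0 in any sample. WT replicates 4 and 5 had the highest cortex sums and the lowest chromaffin sums of the WT group. The sum of 5 of 8 endothelial markers was 483 to 608 CPM in WT, 308 to 432 in HYP and 152 to 364 in PCC, and that of 6 of 8 sustentacular and Schwann cell markers was 44.2 to 94.7 in WT, 59.4 to 98.5 in HYP and 16.8 to 54.4 in PCC. Of 8 macrophage and leukocyte markers only *Cd163* had values throughout, at 8.66 to 22.3 CPM in WT, 32.1 to 43.1 in HYP and 5.96 to 52.8 in PCC. No adipocyte marker was among the genes tested, and of 7 erythroid markers only *Hbb-b1* was, for PCC vs. HYP, where it was not called. For PCC vs. WT edgeR called 9 of 11 cortex markers lower and 10 of 10 chromaffin markers higher. Of all genes tested there, 38.5% were called lower and 46.7% higher. Since each sample is bulk tissue, fewer cells of a type and less RNA per cell cannot be told apart, and the part of this cell makeup in the changes described here was not tested.

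Between PCC and WT, the metabolic genes and *Vhl* moved one way and *Ret* the other. *Sdha*, *Sdhb*, *Sdhc*, *Sdhd*, *Fh* and *Vhl* were lower in PCC, by 1.57-fold (*Sdhd*) to 2.61-fold (*Fh*) of the group means, and *Ret* was 28.9-fold higher. With edgeR's quasi-likelihood test, 6 of the 7 genes were called lower and 1 higher at an adjusted *p* under 0.05, where 38.5% of all genes tested in this comparison were called lower and 46.7% higher. The PCC and WT samples did not overlap in any of the 7 genes, which was also true of 74.7% of the 5268 genes tested over all 15 samples. This is read from CPM scaled with edgeR's TMM factors, as are all levels and overlaps given below. In the deposited FPKM, which are scaled to library totals and were compared after the data were seen, *Sdhd* overlapped, so that 6 of the 7 genes did not, against 66.8% of all genes. Each table is limited to genes called by the authors from these very samples, so these calls are not independent evidence of a change.

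**Figure D1:**
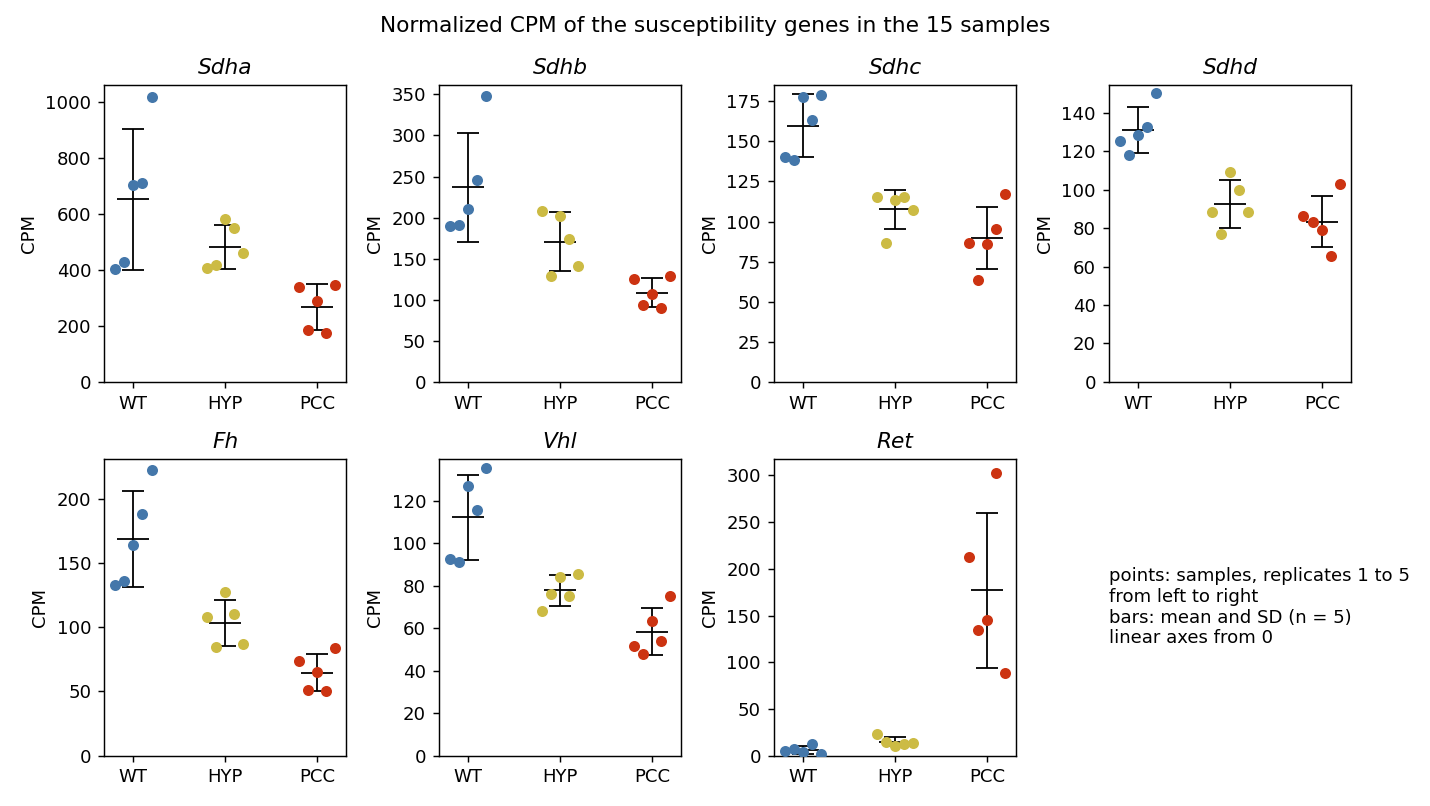
Level of each gene (CPM, linear axes from 0) in the 5 WT, 5 HYP and 5 PCC samples; points are samples and bars the mean and SD. The PCC samples lie below all WT samples in every panel except that of Ret, where they lie between 88.6 and 303 CPM against at most 12.3 CPM in WT.

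The catalytic subunits of succinate dehydrogenase came first in abundance. *Sdha*, the flavoprotein that binds succinate (ENSRNOG00000013331, chromosome 1 from 31545631 to 31570601, plus strand of Rn06), was measured at 403, 429, 705, 711 and 1020 CPM in WT replicates 1 to 5. It was at 407, 417, 582, 549 and 460 CPM in HYP replicates 1 to 5 and at 339, 187, 290.1, 173 and 347 CPM in PCC replicates 1 to 5. The PCC samples were below all others in CPM (in FPKM, PCC replicate 5 was above HYP replicate 1), while the HYP samples lay within the WT range. The log2 fold change of *Sdha* was -1.30 for PCC vs. WT (standard error 0.29, edgeR adjusted *p* = 0.00504) and -0.94 for PCC vs. HYP (standard error 0.25, adjusted *p* = 0.0417). *Sdha* is not in the HYP vs. WT table. Fitted over all 15 samples, that difference was -0.47 on the log2 scale with a standard error of 0.26 and was not called (edgeR adjusted *p* = 0.419).

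*Sdhb*, the iron-sulfur subunit (ENSRNOG00000007967, chromosome 5 from 159484370 to 159505064, plus strand of Rn06), was at 189.6, 190.6, 211, 246 and 349 CPM in WT replicates 1 to 5. In HYP replicates 1 to 5 it was at 209, 128, 202, 174 and 141 CPM, and in PCC replicates 1 to 5 at 125, 93.2, 107, 90.01 and 128 CPM. HYP again overlapped WT, and the highest PCC sample and the lowest HYP sample, both at 128 CPM, were all but equal. The log2 fold change was -1.14 for PCC vs. WT (standard error 0.18, edgeR adjusted *p* = 0.000893), -0.74 for PCC vs. HYP (standard error 0.20, adjusted *p* = 0.0412) and, not called, -0.53 for HYP vs. WT (standard error 0.21, adjusted *p* = 0.118).

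The RefSeq promoter windows of the genes, 250 bases before to 50 bases after the annotated start in build GRCr8, were searched on both strands for 6 short motifs. Those of *Sdhb*, *Fh* and *Ret* are shown, each where its gene is described, because *Sdhb* and *Fh* were lower in the tumors and *Ret* higher. *Sdha*, *Sdhc*, *Sdhd* and *Vhl* were lower too, but their windows are not shown, and those shown do not stand for them. The window of *Sdhb* (chr5:158547684-158547983, plus strand) held GCATGCGC, the core of the NRF1 site, and CCGGAAG, a core of ETS factor sites, both in capitals.
Sdhb: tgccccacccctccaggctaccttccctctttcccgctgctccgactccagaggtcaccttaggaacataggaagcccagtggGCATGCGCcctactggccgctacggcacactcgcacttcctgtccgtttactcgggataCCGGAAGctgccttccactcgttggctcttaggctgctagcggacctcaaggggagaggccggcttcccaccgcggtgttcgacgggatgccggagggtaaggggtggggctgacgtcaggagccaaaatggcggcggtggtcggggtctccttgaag
GCATGCGC was found in 1 of the 7 windows and in 2.47% of all 33469 rat promoter windows of this length, and CCGGAAG in 2 of the 7 (*Sdhb* and *Sdhd*) and in 8.75% of all. A match describes the letters and not a site in use.

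The membrane anchors hold the enzyme in the inner mitochondrial membrane. *Sdhc* (ENSRNOG00000003163, chromosome 13 from 89498048 to 89518939, minus strand of Rn06) was at 139.9, 138, 178, 164 and 179 CPM in WT replicates 1 to 5. It was at 115, 86.5, 113, 115 and 107 CPM in HYP replicates 1 to 5 and at 86.4, 63.7, 85.8, 95.5 and 117 CPM in PCC replicates 1 to 5. The HYP and PCC samples overlapped each other, and all 10 were below every WT sample. The log2 fold change of *Sdhc* was -0.62 for HYP vs. WT (standard error 0.14, edgeR adjusted *p* = 0.01002) and -0.86 for PCC vs. WT (standard error 0.16, adjusted *p* = 0.00242).

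*Sdhd* (ENSRNOG00000022980, chromosome 8 from 55028125 to 55037604, minus strand of Rn06) was at 125, 118, 128, 133 and 150.2 CPM in WT replicates 1 to 5. In HYP replicates 1 to 5 it was at 88.6, 77.01, 109, 99.7 and 88.1 CPM, and in PCC replicates 1 to 5 at 86.2, 83.0, 79.0, 65.7 and 103 CPM. As for *Sdhc*, HYP and PCC overlapped and WT stood above both in CPM, whereas in FPKM PCC replicate 5 (93.0) was above WT replicate 5 (91.1). The log2 fold change of *Sdhd* was -0.55 for HYP vs. WT (standard error 0.14, edgeR adjusted *p* = 0.0162) and -0.68 for PCC vs. WT (standard error 0.14, adjusted *p* = 0.00365). Neither anchor is in the PCC vs. HYP table. Over all 15 samples that difference was -0.22 (standard error 0.15) on the log2 scale for *Sdhc* and -0.10 (standard error 0.14) for *Sdhd*, with edgeR adjusted *p*-values of 0.863 and 1.

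*Fh*, which follows succinate dehydrogenase in the cycle (ENSRNOG00000003653, chromosome 13 from 93651484 to 93677377, minus strand of Rn06), was at 133, 136, 164, 188 and 223 CPM in WT replicates 1 to 5. It was at 108, 85.03, 128, 110.3 and 86.8 CPM in HYP replicates 1 to 5 and at 73.7, 51.2, 65.1, 50.04 and 83.8 CPM in PCC replicates 1 to 5. The 3 groups of *Fh* did not overlap at either step in CPM, whereas in FPKM PCC replicate 5 (58.1) was above HYP replicate 2 (57.9). Its log2 fold change was -0.76 for HYP vs. WT (standard error 0.18, edgeR adjusted *p* = 0.0147), -0.77 for PCC vs. HYP (standard error 0.20, adjusted *p* = 0.0384) and -1.40 for PCC vs. WT (standard error 0.18, adjusted *p* = 0.000372). The promoter window of *Fh* (chr13:90082401-90082700, minus strand of GRCr8) was the 1 window of the 7 with ACGTG, a form of the core of the hypoxia response element, which 19.3% of all windows hold. The form GCGTG was not searched for, so these counts do not cover the element as a whole. The window is printed with ACGTG, the CCAAT box and the GC box GGGCGG in capitals. All of them lie there on the opposite strand, so that ACGTG appears as CACGT and the boxes as their complements.
Fh: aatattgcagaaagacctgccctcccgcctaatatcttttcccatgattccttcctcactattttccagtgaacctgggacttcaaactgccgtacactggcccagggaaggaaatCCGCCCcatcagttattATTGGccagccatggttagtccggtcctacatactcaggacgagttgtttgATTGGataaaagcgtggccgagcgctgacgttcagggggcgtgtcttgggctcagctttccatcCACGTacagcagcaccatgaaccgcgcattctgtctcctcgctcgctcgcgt
CCAAT was present in 2 of the 7 windows (*Sdha* and *Fh*) and in 37.5% of all, and GGGCGG in 4 of the 7 (*Sdhc*, *Sdhd*, *Fh* and *Vhl*) and in 33.1% of all. CACGTG, the E-box read by MAX with its partners, which contains ACGTG, was in none of the 7 and in 6.42% of all.

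*Vhl*, the part of a ubiquitin ligase that recognizes hydroxylated HIF (ENSRNOG00000010258, chromosome 4 from 145580799 to 145587845, plus strand of Rn06), fell together with the metabolic genes. It was at 92.5, 90.97, 127, 116 and 135 CPM in WT replicates 1 to 5, at 67.9, 76.3, 84.1, 75.03 and 85.5 CPM in HYP replicates 1 to 5, and at 51.8, 47.8, 63.4, 53.7 and 75.0 CPM in PCC replicates 1 to 5. All HYP and PCC samples were below the WT samples in CPM, whereas in FPKM HYP replicate 5 (31.5) was above WT replicate 2 (30.8), and PCC replicate 5 reached into the HYP range. The log2 fold change was -0.58 for HYP vs. WT (standard error 0.15, edgeR adjusted *p* = 0.0197) and -0.97 for PCC vs. WT (standard error 0.16, adjusted *p* = 0.00109). The call for HYP vs. WT was lost without WT replicate 3 or any 1 of the 5 HYP replicates, with adjusted *p*-values up to 0.0743. *Vhl* is not in the PCC vs. HYP table, and its difference there over all 15 samples was -0.37 (standard error 0.15, edgeR adjusted *p* = 0.156).

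*Ret* (ENSRNOG00000014751, chromosome 4 from 150202058 to 150244372, minus strand of Rn06) was scarce in normal medulla and abundant in the tumors. It was at 4.76, 7.40, 4.17, 12.3 and 1.99 CPM in WT replicates 1 to 5, from 28 to 196 reads. It was at 22.9, 14.5, 10.4, 12.1 and 13.3 CPM in HYP replicates 1 to 5 and at 212, 134, 145, 303 and 88.6 CPM in PCC replicates 1 to 5. Every tumor was above every other sample, while WT replicate 4 reached into the HYP range. The log2 fold change of *Ret* was 4.80 for PCC vs. WT (standard error 0.53, edgeR adjusted *p* = 0.000147) and 3.48 for PCC vs. HYP (standard error 0.35, adjusted *p* = 0.00133). For HYP vs. WT it was 1.20 (standard error 0.40) and was not called (edgeR adjusted *p* = 0.0604), though DESeq2 called it (adjusted *p* = 0.0164), and without WT replicate 4 it was 1.60 and called (edgeR adjusted *p* = 0.0165). The group means were 6.12 ± 3.94 CPM (SD, n = 5) in WT, 14.7 ± 4.84 CPM in HYP and 177 ± 83.2 CPM in PCC.

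The promoter window of *Ret* (chr4:153040507-153040806, minus strand of GRCr8) held none of the 6 motifs and so has no capitals. It is 74.0% G and C, against a median of 51.7% over all windows and 53.0% to 63.7% in the other 6 genes.
Ret: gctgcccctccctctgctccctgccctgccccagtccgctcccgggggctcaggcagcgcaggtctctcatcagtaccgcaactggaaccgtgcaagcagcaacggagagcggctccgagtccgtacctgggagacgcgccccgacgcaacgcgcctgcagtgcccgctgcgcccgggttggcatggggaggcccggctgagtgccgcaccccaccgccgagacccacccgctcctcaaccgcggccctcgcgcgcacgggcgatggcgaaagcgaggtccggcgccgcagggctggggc

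Per kilobase of gene length, the order of levels changed little among the metabolic genes and moved for *Ret*. In WT the order was *Sdha* (287 ± 111 CPM per kilobase, SD, n = 5), *Sdhb* (242 ± 67.7), *Sdhc* (139 ± 17.2), *Sdhd* (107 ± 9.83), *Fh* (106 ± 23.7), *Vhl* (38.9 ± 6.93) and *Ret* (1.10 ± 0.71). *Sdha* and *Sdhb* differed by less than their spread, as did *Sdhd* and *Fh*. In PCC the order was *Sdha* (117 ± 36.2), *Sdhb* (111 ± 17.9), *Sdhc* (78.2 ± 16.9), *Sdhd* (68.3 ± 11.04), *Fh* (40.8 ± 9.14), *Ret* (31.6 ± 14.9) and *Vhl* (20.2 ± 3.79). *Ret* stood below *Vhl* in normal medulla and above it on average in the tumors, where its range of 15.9 to 54.2 CPM per kilobase covered that of *Fh*. The samples of a group also differed most in *Ret*, with a coefficient of variation of 47.1% in PCC and 64.4% in WT, against 16.2% and 9.16% for *Sdhd*.

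The question of stage was put to the tables first. For HYP vs. WT, 6 of the 7 genes are listed, and *Sdhc*, *Sdhd*, *Fh* and *Vhl* were called lower and none higher, where 32.5% of the genes tested were called lower and 39.5% higher. The HYP and WT samples did not overlap in these 4 of the 7 genes, against 41.6% of all genes with values throughout. In FPKM they did not overlap in 3 of the 7 (*Sdhc*, *Sdhd* and *Fh*), against 37.5% of all genes. For PCC vs. HYP, 4 of the 7 are listed, and *Sdha*, *Sdhb* and *Fh* were called lower and *Ret* higher, where 22.6% of the genes tested were called lower and 21.8% higher. The PCC and HYP samples did not overlap in the same 4 of the 7, against 31.9% of all genes. In FPKM only *Ret* did not overlap, against 28.5% of all genes. The 3 comparisons share samples pairwise, so their values are not independent of each other.

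These counts depended on single samples and on the scaling more than the count for PCC vs. WT, which stayed at 7 without any 1 sample. Without HYP replicate 5, the HYP vs. WT count was 2. Without WT replicates 4 and 5, the samples with the highest cortex sums, a choice made after the data were seen, it was 1: *Ret* was called higher (log2 fold change 1.42, edgeR adjusted *p* = 0.00654) and no gene lower, while *Fh* was at -0.48 (adjusted *p* = 0.0935), and the PCC vs. WT count stayed at 7. For PCC vs. HYP only *Ret* was still called when HYP replicate 1, 3, 4 or 5 or PCC replicate 2, 3 or 4 was left out, and *Ret* and *Sdhb* without HYP replicate 2. Over the 10 samples left out in turn, the adjusted *p*-values of *Sdha*, *Sdhb* and *Fh* lay between 0.0193 and 0.103.

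A fit over all 15 samples put both steps of every gene on 1 scale. At the first step (HYP vs. WT) it called the same 4 genes lower, *Sdhc* (-0.61), *Sdhd* (-0.55), *Fh* (-0.74) and *Vhl* (-0.57), where 16.1% of genes were called lower. *Ret*, at 1.20 with a standard error of 0.42, was not called (edgeR adjusted *p* = 0.0747), but it was with a replicate block (1.41, edgeR adjusted *p* = 0.0203) and scaled to library totals (1.36, edgeR adjusted *p* = 0.0476). Scaling to listed counts called it too (1.635, edgeR adjusted *p* = 0.0102). In this fit DESeq2 (1.04, adjusted *p* = 0.0909) and the authors' size factors (1.14, edgeR adjusted *p* = 0.101) did not call *Ret*. At the second step (PCC vs. HYP) it called *Fh* lower (-0.63, edgeR adjusted *p* = 0.0387) and *Ret* higher (3.64, adjusted *p* = 0.000591), where 12.9% of genes were called lower and 19.6% higher. *Sdha* (-0.81) and *Sdhb* (-0.61) were just short of the threshold, with adjusted *p*-values of 0.0631 and 0.0571. Here too single samples decided calls. At the first step none of the 7 was called without HYP replicate 2 or 5 and 2 were called without HYP replicate 1. At the second step *Fh* lost its call without WT replicate 3, HYP replicate 1, 3 or 4 or PCC replicate 2, 3 or 4, whereas 4 genes were called without WT replicate 5 and 5 without PCC replicate 5.

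**Figure D2:**
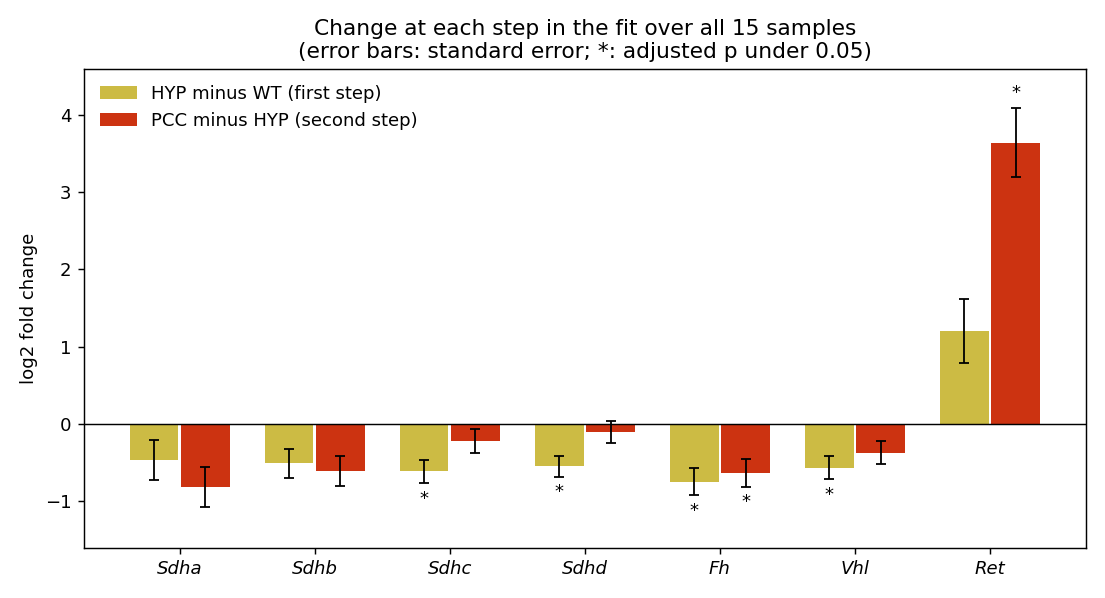
Log2 fold change of each gene at the first step (HYP minus WT) and the second step (PCC minus HYP) in the fit over all 15 samples, with standard errors; an asterisk marks an adjusted p under 0.05. The second step of Ret (3.64) is larger than its first (1.20), while the anchors Sdhc and Sdhd have the larger value at the first step.

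By these values, the first step held 84.2% of the log2 change of *Sdhd* from WT to PCC, 74.0% of that of *Sdhc*, 60.4% of that of *Vhl*, 54.0% of that of *Fh*, 45.7% of that of *Sdhb*, 36.6% of that of *Sdha* and 24.8% of that of *Ret*. The shares have no error of their own and move with the scaling: scaled to library totals they were 92.9% for *Sdhd*, 24.9% for *Sdha* and 26.8% for *Ret*, and scaled to listed counts 71.5%, 7.96% and 31.0%. With DESeq2 the share of *Sdhb* was 51.2%. The difference between the steps was therefore tested itself. No gene of the 7 was called by edgeR, where 1.04% of all genes were, and 1 of them, *Ret*, had an unadjusted *p* under 0.05, as had 20.3% of all genes. *Ret* rose by 2.44 more on the log2 scale at the second step than at the first (standard error 0.74, unadjusted *p* = 0.00474, edgeR adjusted *p* = 0.301), and DESeq2 called this difference (2.59, adjusted *p* = 0.0415). For the metabolic genes and *Vhl* the difference lay between -0.34 (*Sdha*, standard error 0.44) and 0.44 (*Sdhd*, standard error 0.24), each with an edgeR adjusted *p* of 1. Within each of them, a difference between the steps was not detected with 5 samples a group. This test does not compare the genes with each other, so it does not decide whether they differ from each other in stage.

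Differences between 2 genes of the same sample do not depend on how the samples are scaled. The mean log2 CPM of the 5 metabolic genes exceeded that of *Ret* by 5.25 ± 1.05 (SD, n = 5) in WT and by 3.38 ± 0.51 in HYP. In PCC it was below that of *Ret*, at -0.62 ± 0.86. The ranges of the 3 groups, 4.20 to 6.88, 2.75 to 4.04 and -1.80 to 0.61, were apart from each other. This difference thus narrowed by 1.87 from WT to HYP and by 4.00 from HYP to PCC. Since the rise of *Ret* makes up most of this change, it does not show by itself which way the metabolic genes moved. PCC replicate 5 was the 1 tumor in which the metabolic genes were still higher in CPM. CPM are not divided by gene length, and *Ret* is longer than each metabolic gene. On the log2 FPKM scale, which takes length into account, the metabolic genes exceeded *Ret* in every tumor, by 1.39 ± 0.86 (0.22 to 2.62). There the means were 7.23 in WT and 5.39 in HYP.

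**Figure D3:**
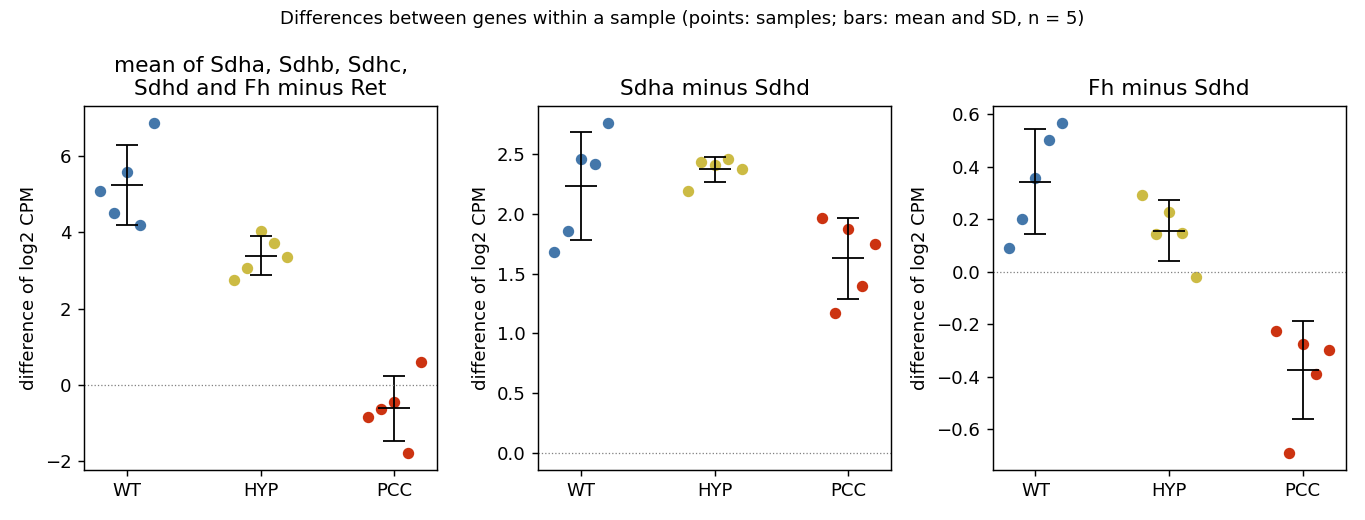
Differences of log2 CPM between genes within each of the 15 samples, with group means and SD (n = 5). The metabolic genes minus Ret decrease from WT (mean 5.25) to PCC (mean -0.62), and Fh minus Sdhd is below 0 in all 5 PCC samples. CPM are not divided by gene length, so where 0 lies depends on the lengths of the genes compared.

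Within the metabolic genes the decrease was unequal. *Fh* exceeded *Sdhd* by 0.34 ± 0.20 on the log2 CPM scale in WT and 0.16 ± 0.12 in HYP and was below it in PCC at -0.38 ± 0.19. The highest PCC sample (-0.22) was below the lowest HYP sample (-0.02). On the log2 FPKM scale *Fh* was below *Sdhd* on average in all groups, at -0.04 ± 0.20 in WT, -0.22 ± 0.12 in HYP and -0.76 ± 0.19 in PCC. *Sdha* exceeded *Sdhd* by 2.23 ± 0.45 in WT, 2.37 ± 0.10 in HYP and 1.63 ± 0.34 in PCC. The PCC range of 1.17 to 1.97 overlapped that of WT, 1.68 to 2.76, and was below that of HYP, 2.19 to 2.46. *Vhl* stayed at a nearly constant distance from the mean of the metabolic genes, -0.97 ± 0.11 in WT, -0.97 ± 0.24 in HYP and -0.86 ± 0.19 in PCC.

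In part, the order of the samples in the metabolic genes was that of the cortex markers. Among the 5 tumors, the summed cortex markers rose in the order of replicates 4, 2, 3, 1 and 5, and so did *Sdha*, *Sdhb* and *Fh*, each gene in that same order. Among the 5 HYP samples the cortex sum rose in the order 2, 5, 1, 4 and 3, which was also the order of *Sdhd* and *Fh* but not of *Sdha*, *Sdhb* or *Sdhc*. Among the 5 WT samples it rose in the order 2, 1, 3, 5 and 4, which none of the metabolic genes kept. *Sdhc* and *Vhl* kept neither order, although both were highest in PCC replicate 5, the tumor with the highest cortex sum, as were all 5 metabolic genes. *Ret* differed from the cortex sum among the tumors at the ends only, highest in replicate 4 and lowest in replicate 5. Replicates 2, 3 and 1 rose in the same order in both. In WT the highest value of *Ret* was in replicate 4, which had the highest cortex sum too. Set beside the chromaffin markers, *Ret* was lowest in the sample with the lowest chromaffin sum of each group: WT replicate 5, HYP replicate 3 and PCC replicate 5. The highest sample was the same in HYP only (replicate 1), and the full order differed in every group. The part of cortex or chromaffin cells in these orders was not tested.

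The scaling of the samples sets where no change lies, and the tables hold changed genes only. Scaled to the sum of counts over listed genes, the median log2 fold change of all genes was 0.50 higher for PCC vs. WT, 0.46 higher for HYP vs. WT and 0.15 higher for PCC vs. HYP than with edgeR's TMM scaling. Scaled to library totals it was 0.29, 0.19 and 0.22 higher, and with DESeq2 it was shifted by -0.10 for the tumors against WT and by -0.17 against HYP. The directions of all listed changes of the 7 genes were the same under all 5 scalings, but the calls were not. With scaling to listed counts 3 genes were called lower for PCC vs. WT instead of 6, and the fall of *Fh* there was -0.90 instead of -1.40. For HYP vs. WT the same scaling left no gene called lower and called *Ret* higher, and scaling to library totals left 2 genes called lower.

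**Figure D4:**
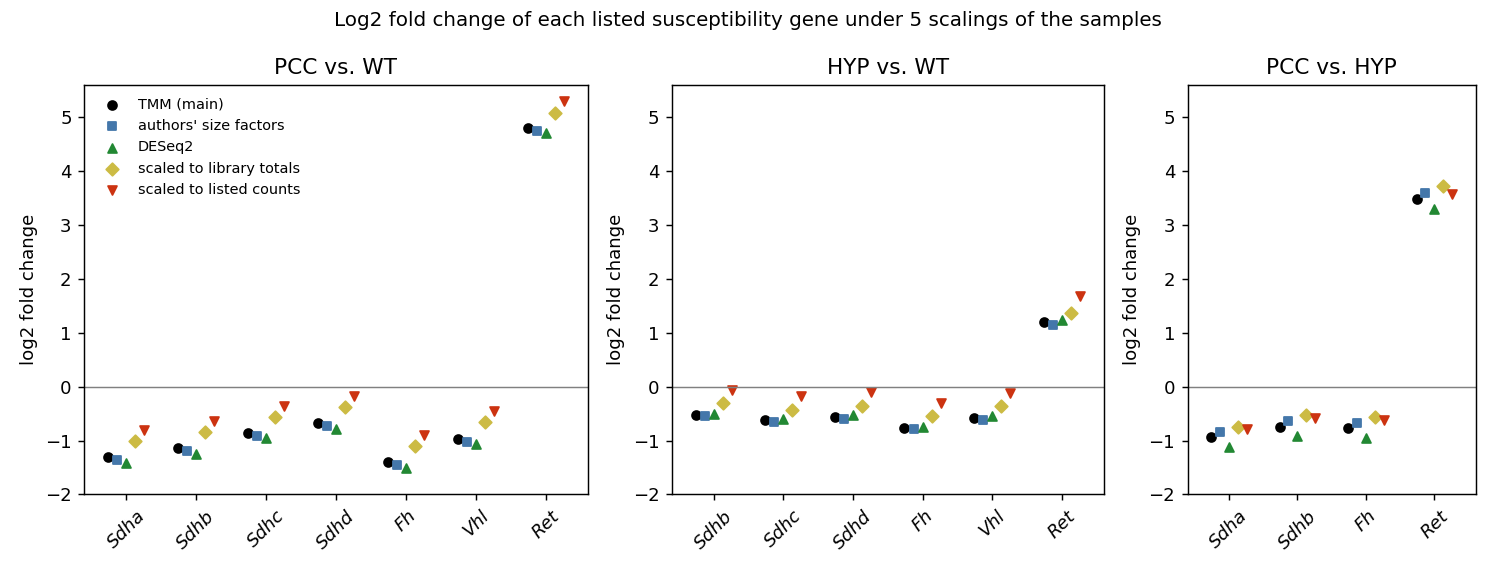
Log2 fold change of each listed gene in the 3 comparisons under 5 ways of scaling the samples. Ret is above 0 and every other gene below 0 in all cases, and scaling to listed counts brings the metabolic genes and Vhl nearest to 0 in the comparisons with WT.

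The genes that work with the 7 were taken from lists by function and described by counts, without a test of a list. For PCC vs. WT, 11 of 13 other TCA cycle enzymes were tested, with a median log2 fold change of -0.79 against 0.44 over all genes tested. Of these 11, 7 were called lower, where 38.5% of all genes tested were: *Suclg2* (-1.46), *Cs* (-1.29), *Dlst* (-1.20), *Suclg1* (-1.04), *Idh3B* (-0.82), *Idh3g* (-0.79) and *Dld* (-0.70). They include citrate synthase, which opens the cycle, and subunits of succinyl-CoA synthetase, which makes the succinate that the *Sdh* complex oxidizes. *Idh3a*, the catalytic subunit of isocitrate dehydrogenase, was called higher (0.61, standard error 0.14, edgeR adjusted *p* = 0.00738), and the others, such as *Sucla2* and *Mdh2*, were not called. Of 4 assembly factors of succinate dehydrogenase, the 1 tested was *Sdhaf4*, which protects the flavoprotein, and it was lower (-0.89, standard error 0.24, edgeR adjusted *p* = 0.0142). At the first step 2 of 5 TCA enzymes tested were called lower, near the 32.5% of all genes, and at the second 2 of 4, against 22.6%.

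Around *Vhl*, 3 genes of the HIF pathway rose while *Vhl* fell. *Epas1*, which encodes HIF2α, was higher at both steps, by 2.09 for HYP vs. WT (standard error 0.28, edgeR adjusted *p* = 0.000871) and 1.44 for PCC vs. HYP (standard error 0.29, adjusted *p* = 0.0147) on the log2 scale, and by 3.64 for PCC vs. WT. *Egln3*, a prolyl hydroxylase that is itself a HIF target, was higher by 3.95 in PCC than in WT and by 2.91 than in HYP. Its level was low outside the tumors and varied among them, at 0.79 to 1.75 CPM in WT, 0.77 to 2.55 in HYP and 2.58 to 42.3 in PCC. *Arnt2*, a dimerization partner, was higher by 1.95 for PCC vs. WT and 1.25 for HYP vs. WT. *Egln2*, another prolyl hydroxylase, fell by 0.83 for PCC vs. WT and by 0.99 for HYP vs. WT and the elongin gene *Tceb1* was not called. In all, 3 of 5 genes tested of 14 in the list were called higher and 1 lower for PCC vs. WT, against 46.7% and 38.5% of all genes tested.

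Around *Ret*, the ligand gene *Gdnf* rose with the receptor gene, at low levels. They were 0 to 0.65 CPM in WT, 0.38 to 0.50 in HYP and 2.23 to 8.32 in PCC. *Gdnf*, which gives its family of ligands the name, was higher by 3.96 in PCC than in WT (standard error 0.69, edgeR adjusted *p* = 0.00142) and by 3.36 than in HYP (standard error 0.42, adjusted *p* = 0.00223) on the log2 scale. The co-receptor gene *Gfra2* was higher by 1.33 for PCC vs. WT and 1.70 for HYP vs. WT, and the adaptor gene *Shc1* by 0.81 for PCC vs. WT. These were the 3 genes tested of 19 ligands, co-receptors and adaptors for PCC vs. WT, and all 3 were called higher, against 46.7% of all genes tested in a table that lists only genes called by the authors. For HYP vs. WT, *Gfra2* was called higher and *Nrtn*, the ligand neurturin, lower (-1.44, standard error 0.44, edgeR adjusted *p* = 0.0437), of 4 tested. Of all genes tested there, 39.5% were called higher and 32.5% lower.

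Downstream of RET, and around the 3 genes that are in no table, the lists split. Of 9 RAS proteins, RAS GTPase-activating proteins and feedback genes of the ERK pathway tested for PCC vs. WT, 5 were called higher, near the 46.7% of all genes tested, among them *Spred2* (1.63), *Etv5* (1.18), *Spred3* (0.66) and *Rasa3* (0.65). SPRED proteins bring NF1 to the membrane, and *Rasa3* encodes a GTPase-activating protein of the same activity as NF1. *Spry1* (-1.24) and *Rras* (-0.97) were called lower. At the first step 1 of 6 was called higher and 2 lower, *Rras* (-0.49) and the ERK feedback gene *Spry4* (-1.17), against 39.5% and 32.5% of all genes. At the second step 5 of 7 were called higher and none lower, against 21.8% and 22.6% of all genes. The largest rise was that of the ERK-responsive factor gene *Etv4* (2.68, standard error 0.50, edgeR adjusted *p* = 0.0112), at low levels. *Etv4* lay at 0.26 to 0.66 CPM in HYP, 1.16 to 5.38 in PCC and 0 to 2.92 in WT. For PCC vs. WT it was not called (2.16, standard error 0.94, edgeR adjusted *p* = 0.112). Of the genes listed around MAX, 5 were tested. *Mnt* (0.95), *Mxd4* (0.78) and *Mxd1* (0.58) were called higher and *Mxi1* (-0.72) and *Mlxipl* (-2.91) lower, where 46.7% and 38.5% of all genes were. Of 9 genes of mTORC1 and its lysosomal regulators, 4 were called higher (*Mlst8*, *Tsc2*, *Flcn* and *Rragc*, with log2 fold changes of 0.43 to 0.96) and 5 lower (*Eif4ebp1*, *Rheb*, *Lamtor2*, *Lamtor5* and *Depdc5*, with log2 fold changes of -1.37 to -0.53), shares near the 46.7% and 38.5% of all genes.

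**Figure D5:**
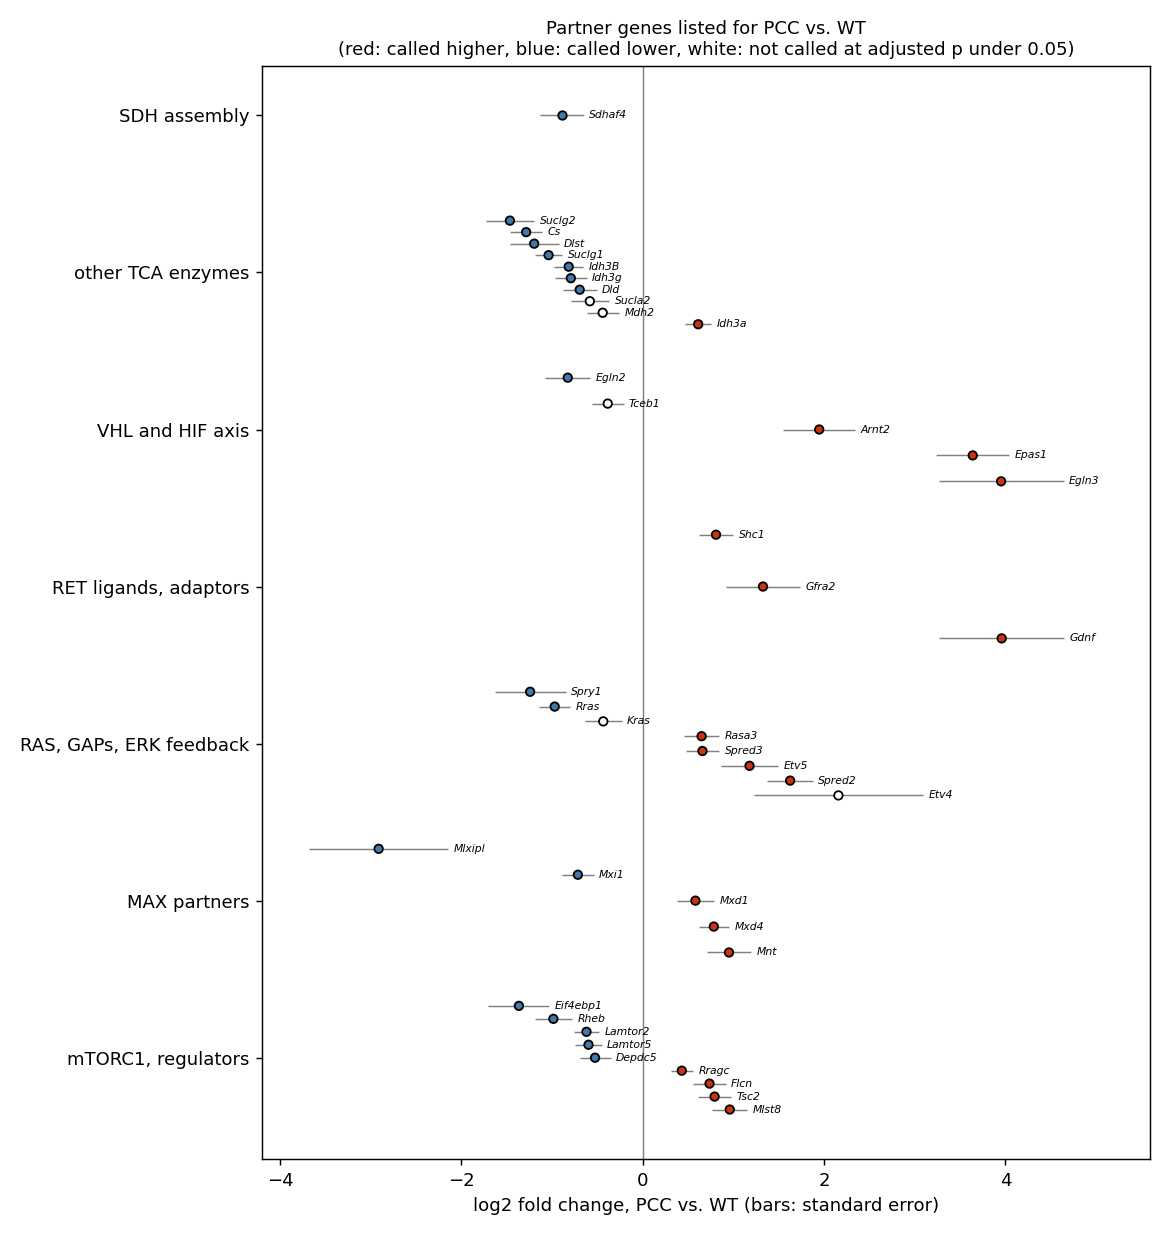
Log2 fold change (PCC vs. WT, bars: standard error) of tested genes that work with the susceptibility genes, by list. Most other TCA enzymes lie below 0, with Suclg2 at -1.46, and the RET partners lie above 0, with Gdnf at 3.96.

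Other genes reported in inherited pheochromocytoma repeated the division in part. Of 11 genes of metabolic or hypoxia type, 8 were tested for PCC vs. WT, 6 were called lower, among them *Idh2* (-1.37, standard error 0.18, edgeR adjusted *p* = 0.000337), *Idh1* (-1.01) and the malate-aspartate shuttle gene *Got2* (-0.93), and *Epas1*, whose inherited and somatic mutations activate it, was called higher. *Egln2*, *Dlst* and *Suclg2*, counted above, belong to these 6. Of 8 genes of kinase and Wnt type, 3 were tested and 2 were called lower (*Kif1b* and *Met*), so a lower level was not restricted to metabolic genes. Both counts stand against 38.5% called lower and 46.7% called higher of all genes tested for PCC vs. WT.

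For each of the 7 genes, the genes of most similar level over the 15 samples were listed. The measure is Pearson's r of log2 CPM, given as a description, since the points share the 3 groups. *Fh* was most like *Atp5b* of the ATP synthase (r = 0.99), with the kinase gene *Prkcd* next, and the genes most like *Sdhb* included *Nit1* (r = 0.98) and *Stoml2*. *Sdhd* was most like *Phb*, *Cox5a* of cytochrome c oxidase and *Atp5b* (r = 0.94 for each). *Sdha* was most like *Gpr137b*, the mitochondrial protease gene *Lonp1* and *Ghitm*, *Sdhc* like *Rcl1*, *Cd81* and the glycolytic gene *Pgk1*, and *Vhl* like *Lrrc58*, *Aldh7a1* and *Cpox*, with r from 0.97 to 0.99. *Ret* was most like *Cox4i2* (r = 0.99), the form of a cytochrome c oxidase subunit known for its induction in hypoxia, then *Slc18a2*, the vesicular monoamine transporter, and the ion channel gene *Asic1*.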

How the data were processed

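RNA-seq of 15 rat samples, 5 per group, was analysed from 3 tables, 1 for each pair of groups. The authors cleaned the paired-end reads and aligned them with HISAT2 to rat genome build Rn06, compared the groups with DESeq2 and listed the genes below an adjusted *p* of 0.05. The submitters' processing notes name HISAT2 2.0.5 and featureCounts 1.5.0-p3. The deposited read counts are raw counts per gene and sample. The deposited signal values are these counts divided by the authors' size factor for each sample. The deposited FPKM values, made by the authors from counts, gene lengths and library totals, served to recover those totals and for an alternative. The log2 fold changes and p-values of the authors' own comparisons were not used as results, but their raw and adjusted p-values gave how many genes entered each of their tests (18790, 18057 and 17454). No per-sample column was left unassigned.

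Counts were tested with edgeR 4.0.16 (limma 3.58.1, R 4.3.3): TMM scaling over listed genes, the default filter on low counts, and the quasi-likelihood F-test. The Benjamini-Hochberg adjustment counted every gene in the authors' test (for the fit over all 15 samples, the largest of the 3), which makes an adjusted *p* an upper bound, and a gene was called under 0.05. The fit over all samples used 5268 genes with values throughout. CPM are counts divided by the TMM-scaled sum of the sample over genes with counts in all samples, brought by 1 common factor to the geometric mean of the library totals recovered, and 0.5 was added before log2 CPM was taken. The procedure was tested on simulated data, in which most genes were unchanged and as many were raised as lowered. The listed genes, in contrast, had all been called by the authors. That simulation therefore does not cover the choice of scaling, nor did it include the difference between the steps. Each group is 5 animals, and the *p*-values measure the spread between them. The library kit as described does not mark strand, and no listed gene overlaps any of the 7.

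The members and lists were chosen with earlier results of these data known. Genes named are the 10 susceptibility genes, called or tested genes of the function and marker lists, and for each member the 3 genes of highest Pearson's *r* with a mean of at least 1 CPM. Values of 3 single genes are left out of the text, though they stay in the counts. The alternatives were DESeq2 1.42.0, the authors' size factors, scaling to library totals or listed counts, other filters, FPKM (pseudocount 0.1), a replicate block and leaving out each replicate. Motifs were counted in RefSeq windows of build GRCr8, of which all 7 genes had 1. Python 3.11.15 with numpy 2.4.6, pandas 2.3.3, scipy 1.17.1 and matplotlib 3.10.9 did the rest.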

Additional observations from a re-analysis of the deposited data

Results flagged for a closer look

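*Sdhc* in HYP replicate 2, at 86.5 CPM, stood apart from the other HYP samples, with a gap to its nearest neighbor of 0.715 of the group's range, where Dixon's 95% critical value for 5 samples is 0.71. Chance sets apart about 1 in 20 groups in this way, and 21 groups were examined for the susceptibility genes. The marker sums of each group were examined by the same rule besides, and none was flagged. *Sdhc* was called lower for HYP vs. WT without any 1 sample in the pairwise fit, but not without HYP replicate 2 or 5 in the fit over all samples.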

How the results depend on the processing

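No direction of a change between groups reversed under any alternative (0 of 756 values, 336 of them in the tables). The number of the 7 genes called was less stable. For PCC vs. WT it was 7, and 4 when scaled to listed counts. For HYP vs. WT it was 4, but 1 when scaled to listed counts, 2 when scaled to library totals, 1 without WT replicates 4 and 5 (chosen after the data were seen) and 2 to 5 without single replicates. For PCC vs. HYP it was 4, but 1 when scaled to listed counts or to library totals, 2 with the authors' size factors, 2 in the fit over all samples and 1 to 4 without single replicates. In the fit over all samples it was 4 for HYP vs. WT, 2 scaled to library totals, 1 scaled to listed counts and 0 to 5 without single replicates, and 2 for PCC vs. HYP, 4 with DESeq2 and 1 to 5 without single replicates. The number with a called difference between the steps was 0, and 1 with DESeq2. That difference, called for none of these genes by edgeR, changed sign for *Fh* when scaled to library totals (-0.014) or listed counts (-0.25) and without single replicates (-0.088 to 0.27), for *Vhl* when scaled to listed counts (-0.17), and for *Sdhb* with DESeq2 (0.031) and without single replicates (-0.34 to 0.032). The cause of these changes was not tested; scaling to listed counts or library totals raised the median log2 fold change of all genes in each table.

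Replicate numbers did not pair the samples: 8 of 15 same-number pairs of samples correlated above 0.1 (r from -0.34 to 0.36), and in 5 of 15 the own number correlated best. With a replicate block, 1 gene was called for PCC vs. HYP instead of 4, and 1 instead of 2 in the fit over all samples. The block left the counts for the other comparisons within 1.5 times, and over all samples it called *Ret* higher for HYP vs. WT (1.41, edgeR adjusted *p* = 0.0203). With 5 samples a group and only called genes listed, small differences such as the second step of *Sdhd* were not detectable.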
